A study of Mus musculus with 6 samples.

Results

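The genes described here are 50 genes of DNA replication and nucleotide supply, 50 of the 24032 genes that have a probe set with exactly 1 gene symbol in the study. The members are a fixed list of gene symbols, and each is represented by its brightest probe set over the 6 arrays. Each of the 50 had exactly 1 such probe set, so no choice between probe sets was needed. They fall into 7 roles, with 9 genes of origin recognition and licensing, 13 of the replicative helicase and its activation, 9 of polymerases and primase, 6 of the clamp and clamp loader, 5 of single-strand binding and Okazaki fragment joining, 5 of nucleotide supply, and 3 of chromatin behind the fork.

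RNA came from MA-10 cells, a steroid-producing line derived from a mouse Leydig cell tumour. One group of 3 cultures had received siRNA targeting COUP-TFII, the orphan nuclear receptor encoded by Nr2f2, and the other group of 3 a control siRNA, and both were transfected for 48 h. No genotype or other treatment differs between the groups in the labels, no siRNA sequence was used here, and all cells belong to this 1 tumour line. The labels call the arrays biological replicates without saying how the cultures were separated, so the p-values measure the spread between these samples.

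DNA replication starts at origins, where the origin recognition complex, Cdc6 and Cdt1 load the Mcm2 to Mcm7 ring onto DNA in G1 phase. In S phase the kinase Cdc7, Mcm10 and the GINS complex help turn that ring into a moving helicase, behind which the clamp loader places the sliding clamp Pcna and the polymerases copy both strands. Ribonucleotide reductase and the thymidylate enzymes supply the deoxynucleotides, and many of these genes are classical targets of E2F transcription factors.

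Expression is given as the normalized log2 value that the authors deposited, and a difference is the mean of the COUP-TFII siRNA arrays minus the mean of the control siRNA arrays. Array medians were 7.59 to 7.60 in the COUP-TFII siRNA group and 7.56 to 7.57 in the control siRNA group. Across probe sets, arrays correlated at 0.995 to 0.997 within a group and at 0.995 to 0.996 between groups. Nr2f2, the siRNA target, read 8.25, 8.42 and 8.56 in the COUP-TFII siRNA arrays, against 8.98, 8.97 and 9.19 in the control siRNA arrays. It fell by 0.63 (SE 0.09), to 64.4% of control, with a limma adjusted p of 0.00802, and it still passed without any 1 array (adjusted p 0.0189 to 0.0463). Of 9 measured Leydig cell markers 7 fell and 0 rose at an adjusted p under 0.05. The 2 not called were Cyp17a1, at 0.34 (SE 0.13, adjusted p = 0.201), and Nr5a1, at -0.02 (SE 0.05). Among all probe sets 2.92% fell and 1.59% rose by the same rule. The 9 markers had linear sums of 22325 to 22831 in the COUP-TFII siRNA arrays and 27948 to 28961 in the control siRNA arrays. The germ cell sum was also lower without overlap, at 607.7 to 626.2 in the COUP-TFII siRNA arrays and 668.5 to 706.2 in the control siRNA arrays. So was the endothelial sum, at 3488.6 to 3601.8 in the COUP-TFII siRNA arrays and 3696.8 to 4048.4 in the control siRNA arrays. Linear sums weigh the brightest markers most. The brightest was Inha (-0.56) in the Leydig list, Ddx4 (-0.32) in the germ list and Cdh5 (-0.15) in the endothelial list. The median difference was 0.02 over the germ markers, with 4 of 6 above 0. It was 0.01 over the endothelial markers, with 3 of 6 above 0. The Sertoli and macrophage sums overlapped between the groups. The part of these shifts in the values of the replication genes was not tested. Among the 5 Sertoli, 6 germ cell, 6 macrophage and 6 endothelial markers, 1 was called, the germ cell gene Ddx4 (-0.32, SE 0.06, adjusted p = 0.0217). The labels name MA-10 cells alone, so these other lists name genes, not cell types known to be present. In RNA from whole cultures, fewer cells that express a gene and less of its RNA per cell cannot be told apart.

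Most of the replication genes read slightly lower after the COUP-TFII siRNA, and 6 of the 50 passed the test. Gins1, Gins2, Mcm8, Pold2 and Rfc4 fell, Orc5 rose, and 44 were not called. A gene was called at a Benjamini-Hochberg adjusted p under 0.05 from limma over all 26836 probe sets with a symbol. By that rule 2.92% of all probe sets fell and 1.59% rose, in numbers 783 and 426, and centring each array on its median instead gave 1184 falls and 308 rises. All 50 members lie among the 13418 brighter probe sets, of which 5.37% fell and 2.78% rose. The 1 rise among 50 is about what that background gives, and the 5 falls are somewhat more.

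The direction was more uniform than the calls. Of the 50 members 42 had a difference below 0 and 8 above 0, and the median difference was -0.13, or 91.3% of control, against 0.01 over the 24032 genes. All 3 COUP-TFII siRNA arrays lay below all 3 control siRNA arrays for 27 members, where 12.2% of all probe sets did so. The reverse held for 3 members, all of them origin recognition genes, where 13.0% of all probe sets did so. At an unadjusted p under 0.05, 26 members were lower and 3 higher, against a background of 9.86% lower and 9.42% higher. These shares are over all probe sets. They were not computed for the 13418 brighter ones, among which all 50 members lie. On single arrays the median member stood at -0.11, -0.16 and -0.10 relative to the control mean in the COUP-TFII siRNA arrays, and at -0.02, 0.00 and 0.01 in the control siRNA arrays. Of the 42 members below 0, 31 had their lowest COUP-TFII siRNA value in replicate 2, 8 in replicate 1 and 3 in replicate 3. Without COUP-TFII siRNA replicate 2 the median over the members was -0.11.

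The number of calls depended on the setting. Leaving out single arrays gave 2 to 3 falls and 0 to 1 rises among the members, and Gins1 and Rfc4 passed under every setting run. A variance prior that follows brightness, or a fit on the 13418 brighter probe sets alone, gave 20 falls and 3 rises among the members. With that prior 1317 of the 26836 probe sets were lower and 815 higher, and the fit on the brighter probe sets called 1455 of them lower and 920 higher.

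**Figure D1:**
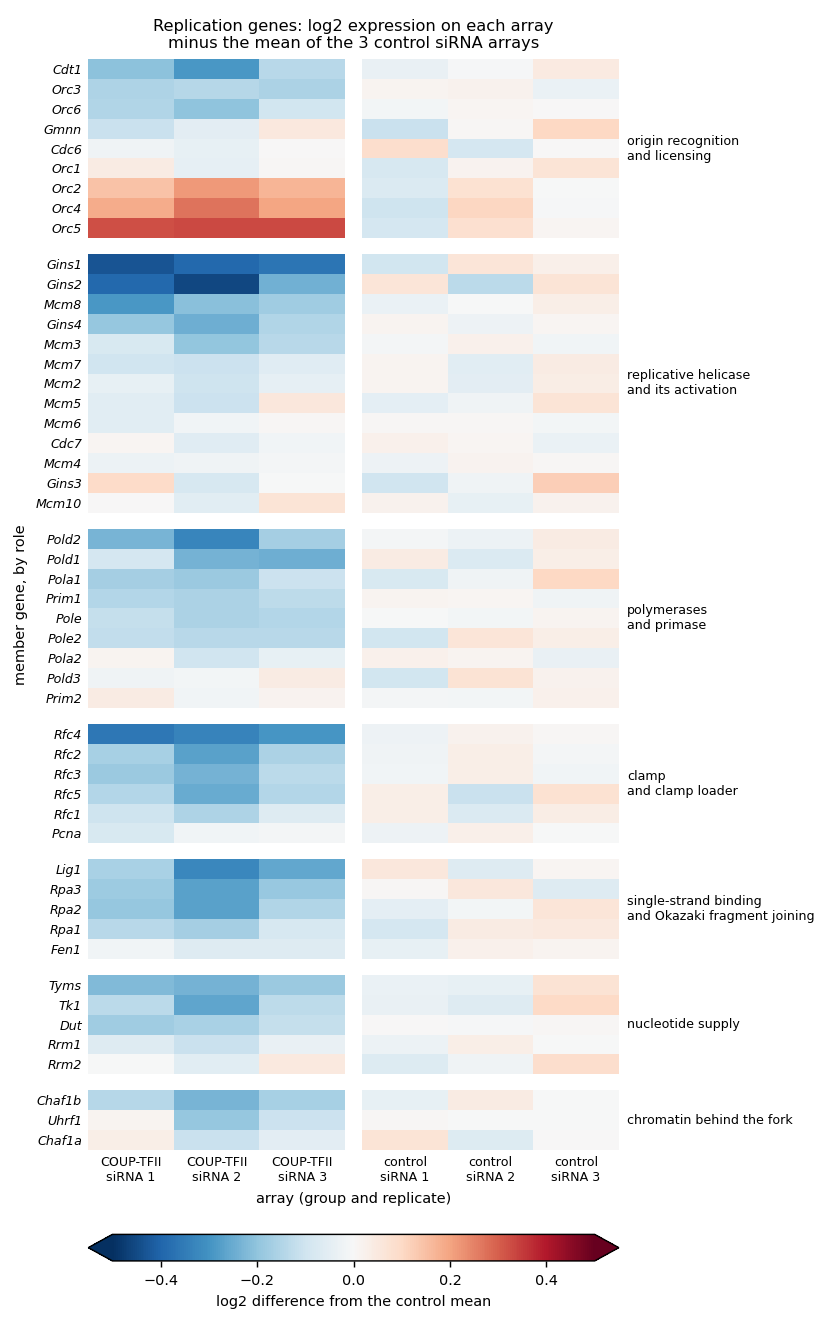
Log2 expression of each of the 50 replication genes (rows, by role) on each array (columns), minus the mean of the 3 control siRNA arrays, with blue for lower and red for higher. The 3 COUP-TFII siRNA columns are mostly blue, Orc2, Orc4 and Orc5 are red in all 3, and replicate 2 holds the lowest COUP-TFII siRNA value for 31 of the 42 members below 0.

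Start regions are shown for the called members that have a window, Mcm8, Pold2 and Rfc4, which fell, and Orc5, which rose. Whether these genes moved together was not tested. RefSeq windows of 300 bases on build GRCm38.p6, 250 before the annotated start and 50 from it on, were found for 42 of the 50 members, and not for Gins1, Gins2, Gins4, Gmnn, Mcm4, Pole, Prim2 and Rfc2. In the lines below capitals mark, on either strand, an E2F form (TTTCCCGC, TTTGGCGC, TTTCGCGC or TTTGCCGC) or a CCAAT box, which reads ATTGG on the printed strand when the match lies on the other one.
Mcm8, chr2:132815891-132816190, plus strand: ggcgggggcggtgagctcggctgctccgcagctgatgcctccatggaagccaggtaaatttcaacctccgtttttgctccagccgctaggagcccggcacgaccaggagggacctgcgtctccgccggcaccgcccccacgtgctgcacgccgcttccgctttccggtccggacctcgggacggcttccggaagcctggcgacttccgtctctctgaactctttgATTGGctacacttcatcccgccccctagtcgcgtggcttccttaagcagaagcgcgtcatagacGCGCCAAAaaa
Pold2, chr11:5878207-5878506, minus strand: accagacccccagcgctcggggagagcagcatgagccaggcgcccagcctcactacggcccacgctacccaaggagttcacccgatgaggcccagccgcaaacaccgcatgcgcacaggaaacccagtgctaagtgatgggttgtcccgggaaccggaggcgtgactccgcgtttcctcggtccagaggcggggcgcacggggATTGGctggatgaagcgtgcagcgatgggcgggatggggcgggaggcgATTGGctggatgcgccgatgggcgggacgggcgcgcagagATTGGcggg
Rfc4, chr16:23127681-23127980, minus strand: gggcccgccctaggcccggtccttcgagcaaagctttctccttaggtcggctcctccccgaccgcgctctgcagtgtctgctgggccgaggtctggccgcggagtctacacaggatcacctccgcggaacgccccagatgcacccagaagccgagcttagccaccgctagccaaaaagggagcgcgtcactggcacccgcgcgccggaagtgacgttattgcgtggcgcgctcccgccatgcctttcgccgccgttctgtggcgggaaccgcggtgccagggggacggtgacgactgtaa
Orc5, chr5:22550289-22550588, minus strand: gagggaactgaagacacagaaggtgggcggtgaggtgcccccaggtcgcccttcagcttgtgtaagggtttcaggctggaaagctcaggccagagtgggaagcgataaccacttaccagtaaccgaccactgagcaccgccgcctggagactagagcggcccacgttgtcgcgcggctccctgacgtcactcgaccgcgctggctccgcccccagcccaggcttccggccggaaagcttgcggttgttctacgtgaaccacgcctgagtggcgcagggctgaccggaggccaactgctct
The Mcm8 window holds 1 E2F form at bases 39 to 46 and 1 CCAAT box at bases -25 to -21, counted from 0 at the annotated start. The Pold2 window shown, the first of 2, holds 3 CCAAT boxes and no E2F form. Neither a CCAAT box nor any of the listed E2F forms is present in the Rfc4 window, nor in that of Orc5. Other spellings of an E2F site were not searched in any window. The nuclear receptor core motif AGGTCA, on either strand, is in none of these 4 windows.

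Over all members with a window, 17 of 42 genes (40.48%) had an E2F form in a window, against 3.29% of 17492 protein-coding genes. The forms were found in 6 of 9 helicase genes, 4 of 8 origin genes, 4 of 7 polymerase genes and 0 of 5 nucleotide supply genes. CCAAT boxes were in 25 of 42 members (59.52%) and in 42.32% of protein-coding genes. AGGTCA was in 6 of 42 members (14.29%) and in 16.7% of protein-coding genes. Helicase genes with an E2F form included ring subunits with small differences and the fallen Mcm8. These stretches are written 5′ to 3′ on the strand that carries the form, which is in capitals.
Mcm3, chr1:20820276-20820303, plus strand: cttcccaagtTTTCCCGCcacggaagtt
Mcm5, chr8:75109346-75109373, plus strand: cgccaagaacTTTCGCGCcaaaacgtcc
Mcm6, chr1:128359798-128359825, minus strand: ggcgtatgctTTTGGCGCgaaaagtgcg
Mcm7, chr5:138171850-138171877, minus strand: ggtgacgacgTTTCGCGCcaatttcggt
Mcm8, chr2:132816170-132816190, minus strand: tttTTTGGCGCgtctatgacg
Gins3, chr8:95633508-95633535, minus strand: tcaaactcgcTTTCCCGCgccgcactcg
In Mcm5 and Mcm6 the opposite strand holds a further form that overlaps the one shown. Other forms not shown lie at bases 38 to 45 in Mcm3, -47 to -40 in Mcm6 and -165 to -158 in Mcm7. The median difference was -0.13 over the 17 members with an E2F form and -0.11 over the 25 with a window but no form, so the members with and without these letters had nearly the same median. Of the 5 genes that fell, Mcm8 has a form in its window, Pold2 and Rfc4 have none there, and Gins1 and Gins2 have no window.

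Origin recognition and licensing had members clear of the control arrays on both sides. The origin recognition complex marks the sites where replication can start, and of its 6 subunits 3 had higher and 2 lower values with no overlap between the groups. Over all probe sets, 13.0% lay higher and 12.2% lower in this way. Orc5, on chromosome 5 band A3 (probe set 10528457), read 10.48 in each of the 3 COUP-TFII siRNA arrays, against 10.07, 10.23 and 10.16 in the control siRNA arrays. It was the 1 member that rose, by 0.33 (SE 0.05), to 126% of control (limma adjusted p = 0.0144). Its COUP-TFII siRNA values were nearly identical, with an SD of 0.0048 against 0.0833 in the control siRNA group. The call was lost without COUP-TFII siRNA replicate 1, 2 or 3 (adjusted p = 0.0558, 0.0684 and 0.0551) and without control siRNA replicate 3 (0.0516), while the difference stayed between 0.29 and 0.37.

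Orc2 and Orc4, further subunits of the same complex, differed by 0.18 (SE 0.05, adjusted p = 0.108) and 0.22 (SE 0.06, adjusted p = 0.0929). Orc2 averaged 10.72 ± 0.04 in the COUP-TFII siRNA group and 10.55 ± 0.07 in the control siRNA group (SD, n = 3 each). Orc4 averaged 10.88 ± 0.05 in the COUP-TFII siRNA group and 10.66 ± 0.11 in the control siRNA group. Both groups were separate in each case, but neither gene passed. Orc3 and Orc6 lay on the other side, at -0.15 (SE 0.04, adjusted p = 0.0967) and -0.15 (SE 0.05, adjusted p = 0.127), also without overlap. Orc1, a subunit whose protein level changes through the cell cycle, differed by 0.00 (SE 0.06).

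Cdt1, the factor that brings the Mcm ring to the origin, read 11.23, 11.14 and 11.30 in the COUP-TFII siRNA arrays, against 11.40, 11.43 and 11.48 in the control siRNA arrays. No array of one group reached the other, and the difference of -0.21 (SE 0.05) missed the threshold (adjusted p = 0.0667). Cdc6, its partner in loading, differed by -0.02 (SE 0.06), and geminin (Gmnn), the inhibitor that binds Cdt1, by -0.04 (SE 0.07). For these 2 genes and for Orc1 the arrays of both groups overlapped. The role as a whole had 0 falls and 1 rise among its 9 genes, with a median of -0.02. Of all probe sets 2.92% fell and 1.59% rose by that rule, or 5.37% and 2.78% of the 13418 brighter ones.

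Among the helicase genes, 2 of the 3 that fell belong to GINS. This complex joins the Mcm ring and Cdc45 to form the active helicase, and 3 of the 4 GINS subunits read lower in every COUP-TFII siRNA array, with a median of -0.28 over the 4. Such a separation to the lower side held for 12.2% of all probe sets, and 2.92% of them were called lower. Gins1, on chromosome 2 band H1 (probe set 10476989), read 8.69, 8.73 and 8.75 in the COUP-TFII siRNA arrays, against 9.02, 9.19 and 9.15 in the control siRNA arrays. It fell by 0.40 (SE 0.06), to 76.0% of control, with a limma adjusted p of 0.00798, and had the largest decrease of the 50 members. The lowest control siRNA value was above the highest COUP-TFII siRNA value, and the call held without any 1 array (adjusted p 0.00989 to 0.0461).

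Gins2, on chromosome 8 band E1 (probe set 10582190), read 9.47, 9.40 and 9.62 in the COUP-TFII siRNA arrays, against 9.92, 9.73 and 9.93 in the control siRNA arrays. It fell by 0.36 (SE 0.08), to 77.7% of control (adjusted p = 0.0346), and its highest COUP-TFII siRNA array stayed below its lowest control siRNA array. It no longer passed without COUP-TFII siRNA replicate 1 or 2 (adjusted p = 0.114 and 0.1302) or control siRNA replicate 1 or 3 (0.0863 and 0.110). Gins4 averaged 11.03 ± 0.05 in the COUP-TFII siRNA group and 11.22 ± 0.02 in the control siRNA group, a difference of -0.20 (SE 0.05, adjusted p = 0.0558). Gins3 averaged 9.63 ± 0.09 in the COUP-TFII siRNA group and 9.62 ± 0.11 in the control siRNA group. The 4 subunits of 1 complex thus ranged from -0.40 to 0.00.

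The ring subunits Mcm2 to Mcm7 had small differences, all 6 below 0, between -0.14 and -0.02 with a median of -0.05. Mcm2 read 11.84, 11.78 and 11.84 in the COUP-TFII siRNA arrays, against 11.90, 11.83 and 11.92 in the control siRNA arrays. These groups overlapped, and the 95% interval of the difference ran from -0.17 to 0.05. Mcm3 (-0.14, SE 0.05, adjusted p = 0.164) and Mcm7 (-0.09, SE 0.05, adjusted p = 0.362) were the 2 ring genes with no overlap between the groups, and none of the 6 was called. Among all probe sets, 12.2% were lower without overlap.

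Mcm8 is a relative of the ring subunits with a role in recombination repair, and it fell. On chromosome 2 band F3 (probe set 10476362), it read 8.82, 8.90 and 8.93 in the COUP-TFII siRNA arrays, against 9.08, 9.11 and 9.15 in the control siRNA arrays. The groups were separate, with a difference of -0.23 (SE 0.05), or 85.5% of control (adjusted p = 0.0412). It missed the threshold whichever array was left out (adjusted p 0.0706 to 0.144). Mcm10, which helps start the helicase, differed by 0.00 (SE 0.05), and the kinase gene Cdc7, which phosphorylates the ring, by -0.02 (SE 0.05). The role held 3 falls and 0 rises among 13, with a median of -0.06. The shares were 2.92% and 1.59% over all probe sets, and 5.37% and 2.78% over the 13418 brighter ones.

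**Figure D2:**
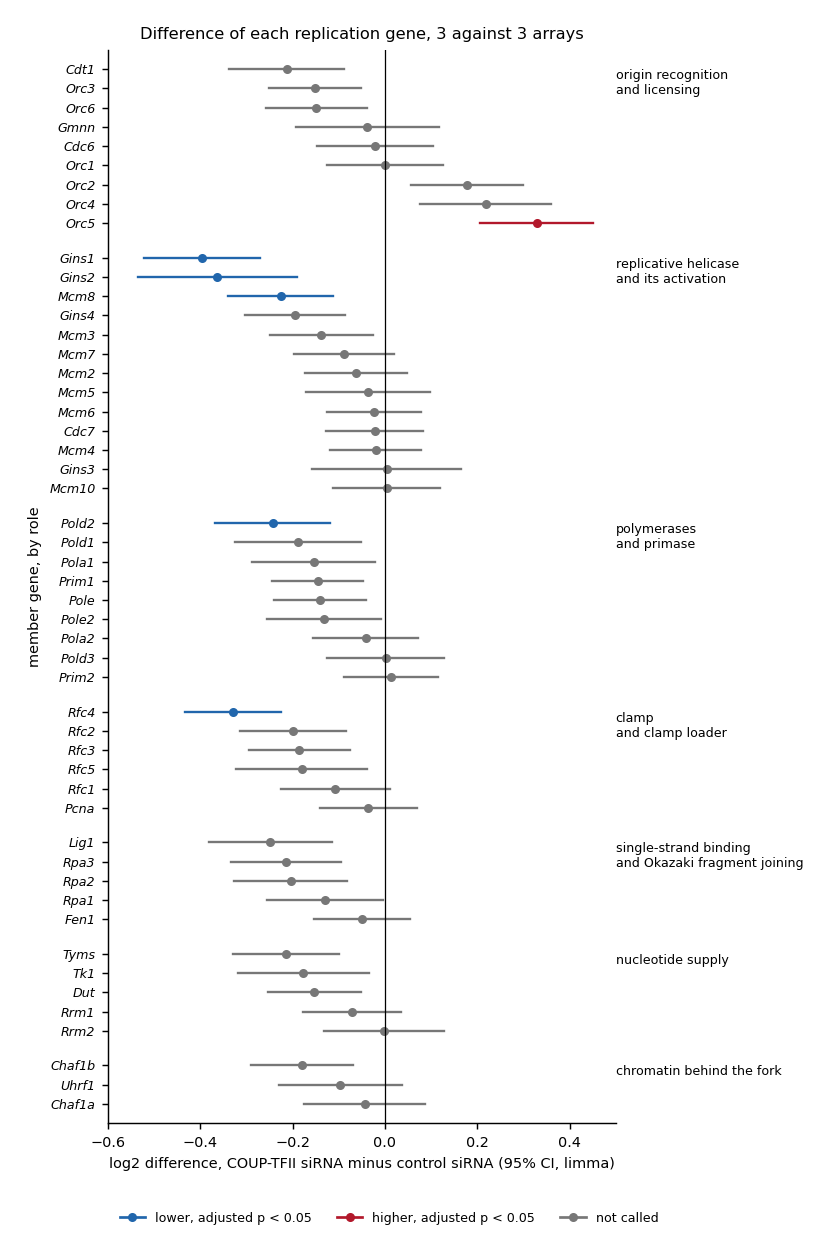
Log2 difference of each replication gene, COUP-TFII siRNA minus control siRNA (horizontal axis), with its 95% confidence interval from limma, ordered within each role (vertical axis). The 5 genes that fell are blue, Orc5 is red, and the grey genes between -0.25 and 0.22 were not called.

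The polymerase and primase genes were mostly lower, 7 of 9 below 0 with a median of -0.14. Pold2, the second subunit of polymerase delta, which copies the lagging strand, lies on chromosome 11 band A2 (probe set 10384032). It read 11.25, 11.15 and 11.31 in the COUP-TFII siRNA arrays, against 11.47, 11.45 and 11.52 in the control siRNA arrays. The groups were separate, and it fell by 0.24 (SE 0.05), to 84.5% of control (adjusted p = 0.0435). As with Mcm8, the call was lost when any 1 array was left out (adjusted p 0.0616 to 0.1496).

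Neither of the other delta subunits was called. Pold1, the catalytic subunit, had a difference of -0.19 (SE 0.06, adjusted p = 0.122), and Pold3 one of 0.00 (SE 0.06). Prim1, the catalytic primase subunit that makes RNA primers, read 11.10, 11.09 and 11.12 in the COUP-TFII siRNA arrays, against 11.26, 11.25 and 11.23 in the control siRNA arrays. Its groups did not overlap, and the difference was -0.15 (SE 0.04, adjusted p = 0.104). Its partner Prim2 differed by 0.01 (SE 0.04), with overlapping arrays. The polymerase alpha subunits Pola1 and Pola2 differed by -0.15 (SE 0.06) and -0.04 (SE 0.05). In polymerase epsilon, which copies the leading strand, Pole and Pole2 differed by -0.14 (SE 0.04, adjusted p = 0.115) and -0.13 (SE 0.05, adjusted p = 0.228), both without overlap.

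All 5 clamp loader subunits had differences below 0, between -0.33 and -0.11, with a median of -0.19. The clamp loader opens the Pcna ring and closes it around DNA. Rfc4, on chromosome 16 band B1 (probe set 10438690), read 11.81, 11.84 and 11.88 in the COUP-TFII siRNA arrays, against 12.15, 12.20 and 12.18 in the control siRNA arrays. It fell by 0.33 (SE 0.05), to 79.6% of control, with the smallest adjusted p of the 50 members (0.00786). The gap between the groups was many times the spread within them, and the call held without any 1 array (adjusted p 0.0215 to 0.0451).

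Rfc2 read 9.87, 9.76 and 9.88 in the COUP-TFII siRNA arrays, against 10.01, 10.07 and 10.02 in the control siRNA arrays. It did not overlap between the groups, and its difference was -0.20 (SE 0.05, adjusted p = 0.0656). Rfc3 and Rfc5 were also without overlap, at -0.19 (SE 0.05, adjusted p = 0.0698) and -0.18 (SE 0.06, adjusted p = 0.152). Rfc1, the large subunit, differed by -0.11 (SE 0.05, adjusted p = 0.311), and its arrays overlapped. Pcna, the clamp itself, read 12.54, 12.60 and 12.61 in the COUP-TFII siRNA arrays, against 12.59, 12.65 and 12.62 in the control siRNA arrays. These values overlapped, and the interval of the difference, -0.14 to 0.07, leaves out a decrease as large as that of Rfc4.

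**Figure D3:**
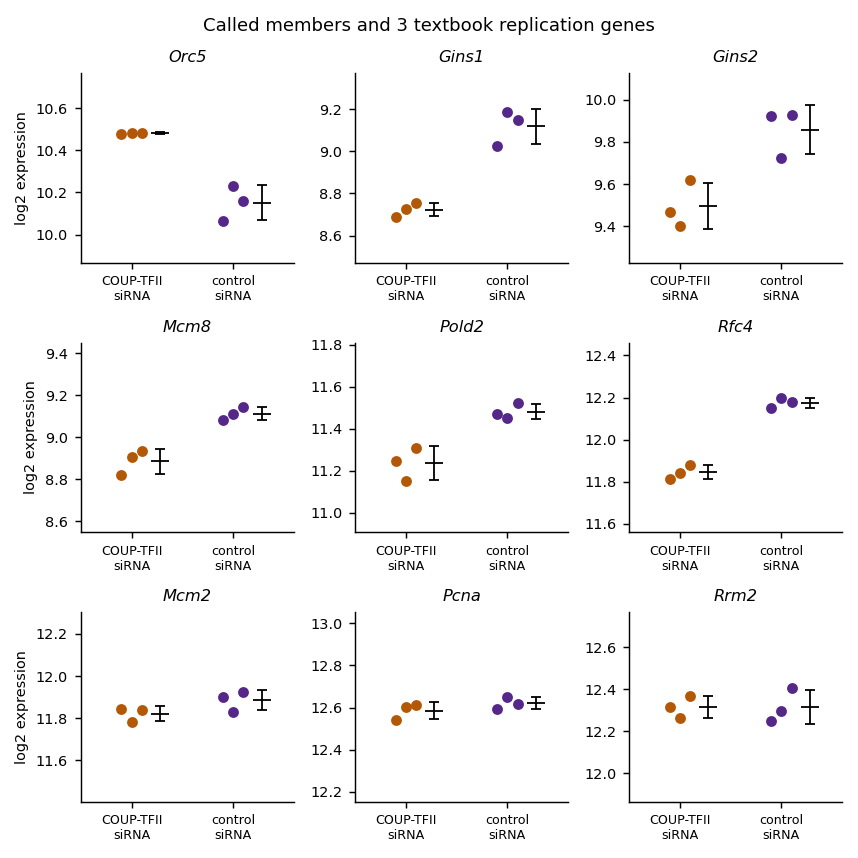
Log2 expression on each array (points) with mean and SD (bars), in the COUP-TFII siRNA group on the left and the control siRNA group on the right of each panel, for the 6 called genes and for Mcm2, Pcna and Rrm2. Each vertical axis covers its own range of levels with the same span. The groups are separate for the 6 called genes and overlap for the other 3.

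Single-strand binding and Okazaki fragment joining had the lowest median of the 7 roles, -0.20, with no gene called. Lig1, the ligase that seals Okazaki fragments, read 10.61, 10.44 and 10.51 in the COUP-TFII siRNA arrays, against 10.82, 10.70 and 10.78 in the control siRNA arrays. The groups were separate, and the difference of -0.25 (SE 0.06), or 84.2% of control, just missed the threshold (adjusted p = 0.0510). Rpa3, the smallest subunit of the single-strand binding protein RPA, read 10.84, 10.75 and 10.84 in the COUP-TFII siRNA arrays, against 11.03, 11.08 and 10.96 in the control siRNA arrays. It was also separate, at -0.21 (SE 0.05, adjusted p = 0.0575). Rpa2 differed by -0.20 (SE 0.05, adjusted p = 0.0727), and Rpa1, the large subunit, by -0.13 (SE 0.05, adjusted p = 0.240). Fen1, the flap nuclease that trims Okazaki fragments before ligation, differed by -0.05 (SE 0.05), with overlapping arrays.

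In nucleotide supply, all 5 genes lay below 0 and none was called, with a median of -0.15. Tyms, Tk1 and Dut act in thymidylate and dUTP metabolism, and Rrm1 and Rrm2 form ribonucleotide reductase. Tyms, thymidylate synthase, read 10.76, 10.74 and 10.79 in the COUP-TFII siRNA arrays, against 10.95, 10.94 and 11.05 in the control siRNA arrays, a difference of -0.21 (SE 0.05, adjusted p = 0.0510). Dut, the enzyme that removes dUTP, read 9.82, 9.84 and 9.88 in the COUP-TFII siRNA arrays, against 10.002, 9.996 and 10.007 in the control siRNA arrays, a difference of -0.15 (SE 0.04, adjusted p = 0.0946). Neither gene overlapped between the groups, and the control siRNA values of Dut were nearly equal. Tk1, the thymidine kinase of S phase cells, differed by -0.18 (SE 0.06, adjusted p = 0.161), also without overlap.

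Rrm2, the reductase subunit that limits deoxynucleotide production in S phase, read 12.31, 12.26 and 12.37 in the COUP-TFII siRNA arrays, against 12.25, 12.30 and 12.41 in the control siRNA arrays. Its groups overlapped fully, and the 95% interval of the difference ran from -0.13 to 0.13. Rrm1, the large subunit, differed by -0.07 (SE 0.05, adjusted p = 0.458).

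Chromatin genes behind the fork were lower by small amounts. Chaf1b, a subunit of the assembly factor that places histones on new DNA, read 11.09, 11.01 and 11.07 in the COUP-TFII siRNA arrays, against 11.20, 11.28 and 11.24 in the control siRNA arrays. The difference of -0.18 (SE 0.05) came without overlap but was not called (adjusted p = 0.0788). Uhrf1, which recruits the maintenance DNA methyltransferase to new DNA, read 11.02, 10.81 and 10.90 in the COUP-TFII siRNA arrays, against 11.013, 11.005 and 11.008 in the control siRNA arrays. These arrays overlapped through COUP-TFII siRNA replicate 1 (-0.10, SE 0.06, adjusted p = 0.423). Chaf1a, the large subunit of the same assembly factor, differed by -0.04 (SE 0.06).

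Set side by side, the role medians were -0.02 for origin genes, -0.06 for helicase genes, -0.14 for polymerases, -0.18 for the clamp and its loader, -0.20 for single-strand binding and joining, -0.15 for nucleotide supply and -0.10 for chromatin. When single arrays were left out, the origin median ran from -0.042 to 0.014, turning sign without control siRNA replicate 3, and the chromatin median from -0.15 without COUP-TFII siRNA replicate 1 to -0.048 without COUP-TFII siRNA replicate 2. No test was made between roles, and the origin genes by themselves ranged from -0.21 to 0.33.

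The authors' deposited list holds 334 changed probe sets, against 35556 in the deposited values, and its smallest absolute fold is 1.3004. Of the 50 members 1 is on it, Gins1, with a ratio of 0.758, and Rfc4, at 0.785, is not. In the authors' deposited table of all probe sets, 43 of the 50 members have a ratio below 1, with the COUP-TFII siRNA group in the numerator. The sources used here do not say which arrays entered that table, and its share of all probe sets below 1 was not computed. In the fit made here, 10508 of the 24032 genes had a difference below 0.

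Other genes of the pathway were taken from 3 further lists. By the same rule 2.92% of all probe sets fell and 1.59% rose, or 5.37% and 2.78% of the 13418 brighter ones. Of 34 further genes of the replisome, its checkpoint and chromatin assembly, 1 fell and 0 rose, and the median difference was -0.02. The gene that fell was Pole4, a small histone-fold subunit of polymerase epsilon, at -0.34 (SE 0.05, adjusted p = 0.0116). It read 9.984, 9.908 and 10.003 in the COUP-TFII siRNA arrays, against 10.24, 10.35 and 10.32 in the control siRNA arrays. The groups were separate, and the call was lost without COUP-TFII siRNA replicate 2 (adjusted p = 0.0632) or control siRNA replicate 3 (0.0507).

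Of 30 genes that control entry into S phase, 6 fell and 1 rose, with a median of -0.03. The shares over all probe sets were 2.92% lower and 1.59% higher. E2f5, a transcription factor of the E2F family usually counted among its repressors, rose by 0.67 (SE 0.06, adjusted p = 0.00132). E2f2, an activating family member, fell by 0.37 (SE 0.06, adjusted p = 0.0180), and Myc, a growth-promoting transcription factor, by 0.40 (SE 0.05, adjusted p = 0.00580). Cyclin E1 (Ccne1) fell by 0.28 (SE 0.04, adjusted p = 0.0121), its kinase Cdk2 by 0.28 (SE 0.05, adjusted p = 0.0236) and the phosphatase gene Cdc25a, which activates that kinase, by 0.30 (SE 0.06, adjusted p = 0.0222). The kinase inhibitor Cdkn1a, which acts in the opposite direction, also fell, by 0.43 (SE 0.07, adjusted p = 0.0134). Of these 7 genes E2f5 and Myc passed without any 1 array, and without COUP-TFII siRNA replicate 2 no others of the list were called. E2f3 had 2 probe sets that disagreed, the brighter at -0.01 (SE 0.05) and the dimmer at -0.32 (SE 0.05, adjusted p = 0.0172).

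Of 34 further genes of nucleotide synthesis and salvage, 5 fell and 0 rose, against 2.92% and 1.59% of all probe sets. The median was -0.12, near that of the replication genes. Ctps2, a CTP synthase, fell by 0.37 (SE 0.05, adjusted p = 0.00968), and Gart, an enzyme of purine synthesis, by 0.21 (SE 0.04, adjusted p = 0.0353). Dguok, a mitochondrial deoxynucleoside kinase, fell by 0.31 (SE 0.07, adjusted p = 0.0372), Dtymk, the thymidylate kinase, by 0.20 (SE 0.04, adjusted p = 0.0433) and Shmt1, which supplies folate-bound carbon for thymidylate synthesis, by 0.21 (SE 0.05, adjusted p = 0.0435). Without COUP-TFII siRNA replicate 2 none of the 5 passed, with Ctps2 nearest at an adjusted p of 0.0550.

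**Figure D4:**
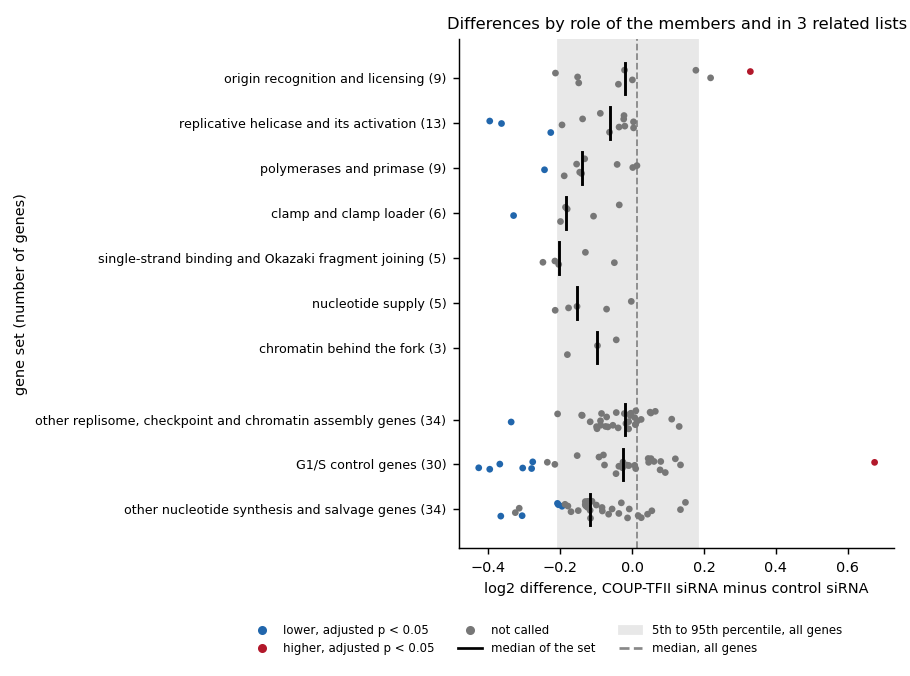
Log2 differences, COUP-TFII siRNA minus control siRNA (horizontal axis), of the genes in each role and in the 3 related lists (vertical axis), with the median of each set as a bar and the 5th to 95th percentile of all genes, -0.21 to 0.18, in grey. In each role most genes lie to the left of the dashed median of all genes, and E2f5 lies farthest to the right.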

How the data were processed

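RNA of 6 MA-10 samples was labelled for Affymetrix arrays, per the labels' protocols. The authors deposited normalized log2 values for 35556 probe sets, between 3.15 and 14.3. The submitters' processing notes name Partek 7.0, and how the values were normalized is not given in the sources used here. The deposited tables of the authors also hold a linear ratio, a signed fold score and a p-value for each probe set. The column names do not say whether it is adjusted. For Gins1 it differs between the table of all probe sets and the list of changed ones. That the scale is logarithmic was taken from the numbers, whose group differences followed the log2 of the deposited ratios (r = 0.965 across probe sets). This correlation does not depend on the base. Read in base 2, Gins1 was at 76.0% of control, against a deposited ratio of 0.758, and Orc5 at 126%, against 1.24.

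The 26836 probe sets with a symbol were fitted with limma 3.58.1 (lmFit, eBayes) in R 4.3.3, with group as the only term. Calls used a Benjamini-Hochberg adjusted p under 0.05, and SE and 95% intervals are those of limma. Precision is limited by the number of arrays: an exact 2-sided permutation test of 3 against 3 arrays gives p = 0.1 at best. The fit was tested on simulated data. Levels on each array are printed for the called members, the 2 members with the smallest p in each role, and Pcna, Mcm2 and Rrm2. Of each related list the called genes are named, and promoters are shown for called members. Values for other members, E2f3 and the arrays of Pole4 were picked after being seen. The members and the lists were chosen with earlier results of these data known. Marker sums add 2 to the power of each deposited log2 value. Alternatives covered scaling, probe set filters, the variance prior, array weights, a replicate block and single arrays left out. Promoter windows were matched by symbol and credited to RefSeq, assembly GRCm38.p6, and the deposited annotation names no build.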

Additional observations from a re-analysis of the deposited data

How the results depend on the processing

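The precision is limited by 3 arrays in each group, and no alternative reversed a called gene. Members called lower numbered 15 after centring each array on its median, 8 after quantile normalization, 20 for the 13418 brighter probe sets alone, 20 with a prior that follows brightness, 10 with array weights, 2 without a symbol filter and 3 with the replicate number as a block. Members called higher numbered 3 for the brighter probe sets, 3 with that prior and 0 without a symbol filter. Leaving out single arrays gave 2 to 3 falls and 0 to 1 rises. Over all tested probe sets the falls and rises moved too, to 1184 and 308 after centring, 938 and 472 after quantile normalization, 1455 and 920 for the brighter probe sets, 1317 and 815 with the prior that follows brightness and 1037 and 557 with array weights. Without single arrays they numbered 210 to 518 falls and 96 to 240 rises. Whether same-numbered cultures of the 2 groups were prepared together is not stated in the labels. The deviations of same-numbered arrays from the group means correlated at 0.11, -0.05 and 0.17 for replicates 1, 2 and 3. COUP-TFII siRNA replicates 1 and 3 correlated best with the control siRNA array of their own number. COUP-TFII siRNA replicate 2 correlated best with control siRNA replicate 1 (0.13). The replicate block left 484 falls and 227 rises among all probe sets and took the call from Mcm8 (adjusted p = 0.0619) and Pold2 (0.0583), and changed no other member's call. Over all probe sets, with or without a symbol, 291 fell and 145 rose. After centring, the median was -0.16 over the members, -0.17 for polymerases and -0.093 for helicase genes. Without single arrays these medians ran from -0.14 to -0.10 for the members, from -0.14 to -0.12 for polymerases and from -0.089 to -0.042 for helicase genes.

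The genes of the related lists were recomputed under the same settings, a choice made after seeing the data. Called nucleotide synthesis genes numbered 11 for the brighter probe sets, 11 with the prior that follows brightness, 1 without a symbol filter, 3 with the block and 0 to 2 without single arrays. Called S phase entry genes numbered 3 without a symbol filter and 2 to 6 without single arrays, and further replisome genes 0 to 1.

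Of the uncalled members near 0, 8 changed sign. Centring gave -0.026 for Gins3, -0.026 for Mcm10, -0.030 for Orc1, -0.029 for Pold3 and -0.017 for Prim2. Quantile normalization gave -0.00086 for Gins3, -0.00013 for Orc1 and 0.0011 for Rrm2. Array weights gave -0.025 for Gins3, -0.0084 for Mcm10, -0.015 for Orc1 and -0.0042 for Pold3. Without single arrays the difference ran from -0.065 to 0.022 for Cdc6, -0.046 to 0.065 for Gins3, -0.094 to 0.014 for Gmnn, -0.029 to 0.035 for Mcm10, -0.042 to 0.035 for Orc1, -0.045 to 0.038 for Pold3, -1e-04 to 0.029 for Prim2 and -0.037 to 0.042 for Rrm2. The cause of these shifts was not tested.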
